A study of Homo sapiens with 6 samples.

Results

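CLK1, CLK2, CLK3, CLK4, SRPK1 and SRPK2 are the kinases best known for phosphorylating the SR proteins of the splicing machinery. They were chosen by name from the gene column of the authors' merged table, where 6 of 117001 loci held a member. In the assemblies of the single libraries they were 6 of 24177 genes and carried 12 of 43536 annotated transcripts.

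SR proteins bind pre-mRNA and guide the choice of splice sites, and the phosphates on their arginine- and serine-rich tails set where they are and what they bind. SRPK1 and SRPK2 are mostly cytoplasmic and phosphorylate SR proteins for import into the nucleus, while the CLK kinases are nuclear, phosphorylate them further and release them from nuclear speckles. CLK genes also make non-coding transcripts of their own, in which an internal exon is skipped or the introns beside it are kept, and in CLK1 this choice is known to respond to heat and to the activity of the kinase.

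HEK293 is an established line of human embryonic kidney cells, grown here at 37°C. For 30 minutes the cells of the 3 heat shock samples were held at 45°C, in a water bath. The 3 control samples were not heated, and the labels give no other agent for either group. RNA was extracted with Trizol, depleted of ribosomal RNA and sequenced, 1 library for each sample. The labels do not say whether the samples came from separate flasks, so each p-value measures the spread between these samples only, which may be technical.

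The value of a transcript in a library is its FPKM, an abundance per unit of length relative to all mapped fragments of the library, as Cufflinks estimated it. The libraries differed in scale by a common factor over abundant genes, which was 0.938, 0.434 and 0.957 in control replicates 1 to 3 and 2.13, 2.32 and 0.487 in heat shock replicates 1 to 3. The assemblies give no read counts, and relative depth, taken from the coverage that 1 FPKM stood for, differed by up to 2.03 times between libraries. Assembled transcripts without a strand numbered between 17304 and 194489 in a library, and the 3 libraries with most of them were control replicates 1 and 2 and heat shock replicate 3. DNAJB1, an HSP40 co-chaperone used as a check of the labels, was higher in all 3 heat shock libraries, with mean FPKM of 7.11 in control and 90.3 in heat shock. All 6 marker genes of HEK293 averaged above 1 FPKM, and their summed FPKM was 13.1 to 20.6 in control and 15.4 to 42.1 in heat shock libraries. Of 5 markers of other cell types, COL1A1 and KRT5 averaged above 1 FPKM, none was at 0 in all libraries, and the summed FPKM was 5.57 to 9.23 in control and 3.82 to 6.28 in heat shock. In bulk RNA, fewer cells of a type and less RNA per cell cannot be told apart.

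On hg19, CLK1 lies on the minus strand at chr2:201717732-201729467, CLK2 on the minus strand at chr1:155232659-155243281 and CLK3 on the plus strand at chr15:74907335-74922542, each the span of its reference transcript. NM_003992, the other transcript of CLK3, starts upstream at position 74900713. CLK4 lies on the minus strand at chr5:178029665-178054054, SRPK1 on the minus strand at chr6:35800811-35888957 and SRPK2 on the minus strand at chr7:104756823-105029341. Each CLK gene has 13 exons in its reference transcript, and exons 5 to 12, which encode most of the kinase domain, have the same 8 lengths in all 4 genes. SRPK1 and SRPK2 have 16 exons each, of which 10 have equal lengths. Exon 4 of the CLK genes is shown because the non-coding CLK1 transcripts skip it or keep the introns beside it. It has 91, 85, 97 and 91 bases in CLK1, CLK2, CLK3 and CLK4, none a multiple of 3. The exon is in capitals, with 20 intron bases before it and 10 after it in lower case, read 5′ to 3′ on the strand of the gene from GRCh37, the Ensembl name of hg19.
CLK1 chr2:201724838-201724958 minus: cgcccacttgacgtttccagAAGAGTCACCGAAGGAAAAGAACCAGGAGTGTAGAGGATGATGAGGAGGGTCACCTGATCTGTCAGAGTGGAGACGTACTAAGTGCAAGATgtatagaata
CLK2 chr1:155238489-155238603 minus: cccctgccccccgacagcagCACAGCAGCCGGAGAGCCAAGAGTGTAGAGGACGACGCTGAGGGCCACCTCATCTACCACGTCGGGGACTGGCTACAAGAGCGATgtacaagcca
CLK3 chr15:74914441-74914567 plus: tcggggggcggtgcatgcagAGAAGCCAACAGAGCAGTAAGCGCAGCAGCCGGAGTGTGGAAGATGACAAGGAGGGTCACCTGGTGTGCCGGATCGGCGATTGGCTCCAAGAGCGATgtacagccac
CLK4 chr5:178044335-178044455 minus: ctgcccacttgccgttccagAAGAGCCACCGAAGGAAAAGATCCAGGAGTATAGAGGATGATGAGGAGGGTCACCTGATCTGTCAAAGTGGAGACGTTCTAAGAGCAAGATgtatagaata

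The exons of CLK1 and CLK4 were identical at 85 of 91 positions (93.4%). Read from the GENCODE start codon, which is in exon 2 of each gene, the CLK1 exons gave 484 codons before a stop in exon 13. Without exon 4 the frame gave 136 codons and met a stop in exon 5, and with intron 3 kept it gave 131 codons and met a stop that began at base 4 of the intron. The same reading gave 139, 152 and 143 codons without exon 4 in CLK2, CLK3 and CLK4, where the full frames held 498, 490 and 481.

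As deposited, the summed FPKM of no kinase separated the heat shock from the control libraries. CLK4, for example, had 1.63, 0.712 and 1.43 FPKM in control replicates 1 to 3 and 4.59, 7.18 and 1.58 in heat shock replicates 1 to 3. SRPK1 had 17.4, 6.94 and 16.5 in control and 40.3, 41.0 and 9.13 in heat shock. In both genes heat shock replicates 1 and 2 stood above every control and heat shock replicate 3 fell among the controls, as did the common factor of the libraries. The full order was not that of the factor. In CLK4 heat shock replicate 3, with a factor of 0.487, stood above control replicate 3, with a factor of 0.957. The log2 fold changes on the log2(FPKM + 1) scale were 1.18, 0.08, 1.07 and 1.14 for CLK1, CLK2, CLK3 and CLK4, and 0.93 and 0.62 for SRPK1 and SRPK2, with standard errors from 0.512 in SRPK2 to 1.34 in CLK2. The median of the 6 was 1.00 beside 0.45 over all 13027 genes tested. None of the 6 was called at an adjusted p under 0.05 and more than 2-fold, with adjusted p of 0.710 for 5 of them and 0.972 for CLK2 (limma, Benjamini-Hochberg), where 0.023% of all genes were called. CLK4 alone had an unadjusted p under 0.05, as did 3.69% of all genes tested and, for genes with higher values in heat shock, 2.07%. All heat shock libraries lay above all controls in 3.71% of genes and below them in 2.26%. CLK1 showed the same spread, with 6.72, 1.84 and 10.4 FPKM in control and 16.2, 28.4 and 4.79 in heat shock.

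After each library was divided by its common factor, the summed FPKM of CLK4 lay apart, at 1.74, 1.64 and 1.49 in control and 2.16, 3.10 and 3.25 in heat shock, where 2.01% of genes lay apart upward and 5.38% downward. Its log2 fold change was 0.54 (limma, adjusted p = 0.913). The other 5 kinases overlapped between groups, with log2 fold changes of 0.43, -1.10 and 0.30 for CLK1, CLK2 and CLK3 and 0.09 and -0.06 for SRPK1 and SRPK2. No gene was called on this scale (limma, 0%), with 420 genes (3.22%) at an unadjusted p under 0.05, of which those higher in heat shock were 0.737% of all genes.

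A sum of FPKM over a gene weights a short assembled fragment like a whole transcript, and several of these genes were assembled as fragments of their 3′ end. Each gene was therefore also measured as exon coverage, the mean over its annotated exon bases of the FPKM of all transcripts of its strand covering the base, divided by the common factor. This measure, chosen after the values were seen, is per length and allows the kinases to be ranked. SRPK1 was highest in every library, with a mean of 17.7 ± 1.04 (SD, n = 6) FPKM per exon base, followed by CLK2 at 10.8 ± 2.41 and CLK3 at 5.12 ± 0.416. CLK1 at 1.98 ± 0.325, CLK4 at 1.77 ± 0.377 and SRPK2 at 1.46 ± 0.147 overlapped with their neighbours in this order. The exon bases are those of all annotated transcripts of a gene. For CLK1 they include introns 3 and 4, which NR_027856 keeps. Scaled coverage of these introns ran from 0.208 in control replicate 1 to 1.28 in heat shock replicate 3. CLK1 was thus higher over its reference exons alone, and its overlap with CLK4 applies to this measure. The upper 3 genes did not overlap with each other or with the lower 3 in any library. SRPK1 thus had the lowest relative spread, a coefficient of variation of 5.89% over the 6 libraries, and CLK2 the highest, 22.2%.

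**Figure D1:**
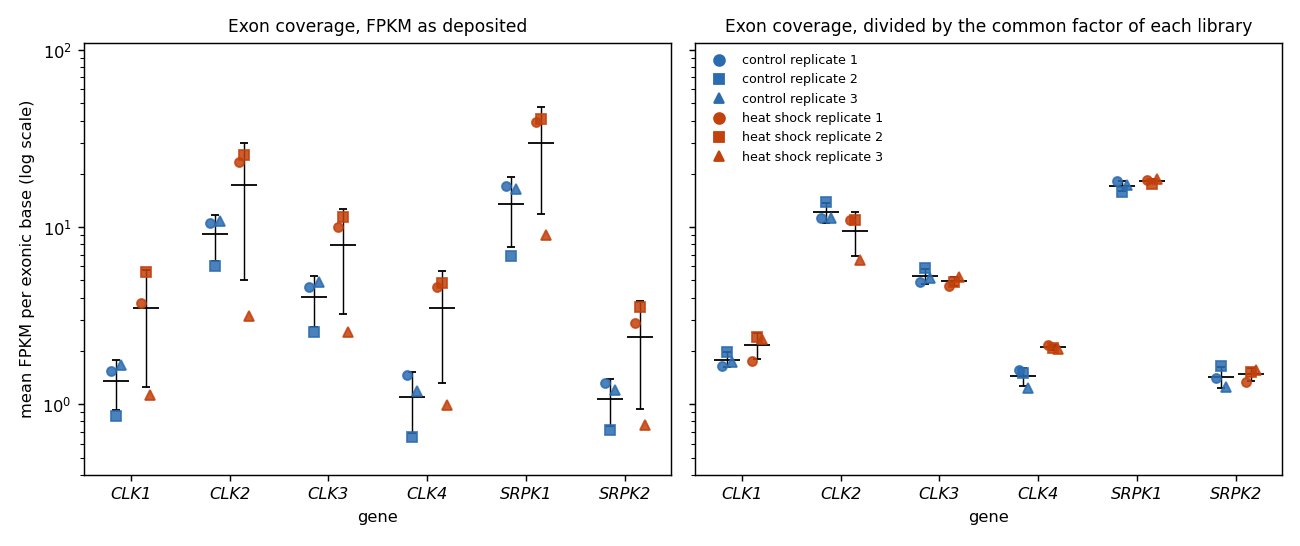
Exon coverage of each kinase gene (log axis, FPKM per exon base) in 3 control (blue) and 3 heat shock (orange) libraries, as deposited on the left and divided by the common factor of the library on the right, with one marker shape for each replicate number, and horizontal bars and whiskers for mean ± SD of 3 libraries. On the left heat shock replicate 3 lies among or below the controls for every gene, and on the right the groups of CLK4 lie apart, with the control libraries at 1.24 to 1.56 and the heat shock libraries at 2.04 to 2.16.

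CLK4, a nuclear kinase close in sequence to CLK1, was the only member whose 3 heat shock libraries all lay above the 3 controls on this measure. Its exon coverage over the common factor was 1.56, 1.51 and 1.24 in control replicates 1 to 3 and 2.16, 2.09 and 2.04 in heat shock replicates 1 to 3. The means were 1.44 ± 0.170 and 2.09 ± 0.0580 (SD, n = 3), a ratio of 1.46, and 1.92% of the 11736 genes tested had all heat shock libraries above all controls. The log2 fold change was 0.35 (SE 0.135) and did not pass the test over all genes (limma, adjusted p = 0.894), where 0% of genes were called and 333 genes (2.84%), CLK4 among them, had an unadjusted p under 0.05, those higher in heat shock being 0.775% of all genes. With median-of-ratios size factors over all genes the groups overlapped, at 1.43, 0.980 and 1.22 in control and 3.02, 3.07 and 1.42 in heat shock, where 4.41% of genes lay apart upward. Within the 3 libraries with most transcripts without a strand the ratio of heat shock to control was 1.33, and within the other 3 it was 1.71, each a value with no spread since 1 of its groups is a single library. The separation was carried by the last exon, of 1094 bases. Exon 13 had 1.32, 1.61 and 1.49 in control and 2.16, 3.10 and 3.25 in heat shock, while the 12 exons before it averaged 1.41 ± 0.345 in control and 1.52 ± 0.559 in heat shock, with overlapping groups (exact permutation test, two-sided, p = 0.8). Its coding transcript NM_020666 was listed at 1.24, 0.235 and 0.513 FPKM in control and at 4.59, 2.45 and 0 in heat shock, so that in heat shock replicate 3 the gene was measured on assembled transcripts alone, 1 of them over the whole gene at 0.464 FPKM and 1 over its 3′ end at 1.12 FPKM. At a minimum of 0.1 FPKM, 12 introns of CLK4 could be measured. They were at 100% spliced in all libraries, other than intron 6 in control replicate 1 (76.0%) and intron 12 in heat shock replicate 3 (70.7%). This share leaves out transcripts that end inside an intron. Among these were 3′ fragments of 4.73 FPKM in heat shock replicate 2, ending in intron 10, and of 1.12 FPKM in heat shock replicate 3, ending in intron 11.

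A ratio of 2 kinases within a library needs no scaling factor. Of the 15 pairs, 7 had groups that lay apart, as had 7.23% of all pairs of genes, and 4 of these 7 held CLK4. The pairs share genes and are not independent of each other. Those with CLK4 include its last exon, without which its groups overlapped above, and ratios without the last exon were not tested. CLK4 over SRPK1 was 0.0854, 0.0951 and 0.0723 in control and 0.116, 0.119 and 0.109 in heat shock, higher in all 3 heat shock libraries, where 0.733% of genes lay apart in this direction relative to SRPK1. CLK4 over SRPK2 was 1.11, 0.921 and 0.993 in control and 1.60, 1.36 and 1.304 in heat shock. CLK3 over CLK4 was lower, at 3.15, 3.89 and 4.13 in control and 2.17, 2.35 and 2.56 in heat shock, and CLK2 over CLK4 was lower too. CLK1 over CLK4 overlapped between the groups, at 1.06, 1.31 and 1.40 in control and 0.813, 1.16 and 1.14 in heat shock. Ratios with CLK1 count its introns 3 and 4 as exon bases. Each pair that lay apart had p = 0.1 by the exact two-sided permutation test, the smallest that 3 against 3 allows, and 0.214 after Benjamini-Hochberg adjustment over the 15 pairs.

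**Figure D2:**
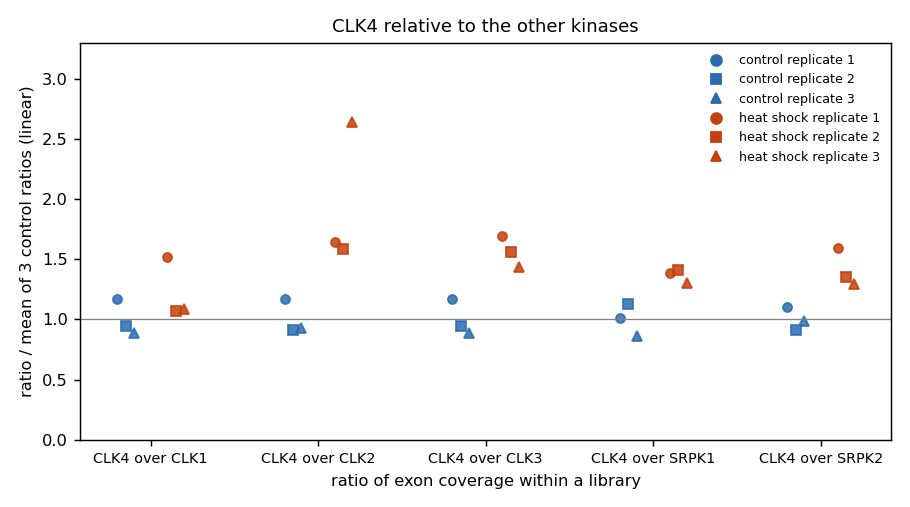
Exon coverage of CLK4 divided by that of each other kinase in the same library, relative to the mean of the 3 control ratios (linear axis, no units), with control libraries in blue, heat shock libraries in orange and one marker shape for each replicate number. The heat shock points lie above all control points for CLK2, CLK3, SRPK1 and SRPK2 and overlap with them for CLK1.

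CLK1, the founding member of the CLK family, had 1.65, 1.98 and 1.74 in control and 1.75, 2.41 and 2.33 in heat shock on the scaled exon coverage, with means of 1.79 ± 0.174 and 2.16 ± 0.359 (SD, n = 3) and overlapping groups. Relative to CLK3 it was higher in every heat shock library, at 0.336, 0.338 and 0.338 in control and 0.375, 0.491 and 0.445 in heat shock. Groups lay apart in 7.23% of all pairs of genes, and this pair had the smallest possible p of 0.1 (exact two-sided permutation test, 0.214 after Benjamini-Hochberg adjustment). Relative to SRPK1 the groups overlapped, from 0.0902 to 0.125 in control and from 0.0947 to 0.137 in heat shock. The CLK1 levels and ratios given here all count its introns 3 and 4 as exon bases.

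Most of the CLK1 signal came from the 3′ end of the gene. Exon 13 had 7.17, 4.24 and 10.9 FPKM over the common factor in control and 7.62, 12.3 and 9.84 in heat shock, while exon 1 had 0.895, 2.66 and 0.622 in control and 0.553, 0.953 and 1.28 in heat shock. The last exon was above exon 5 in all 6 libraries, by 1.59 to 17.5 times, and neither exon separated the groups. In SRPK1 the last exon was equal to exon 5 in each of the 6 libraries.

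**Figure D3:**
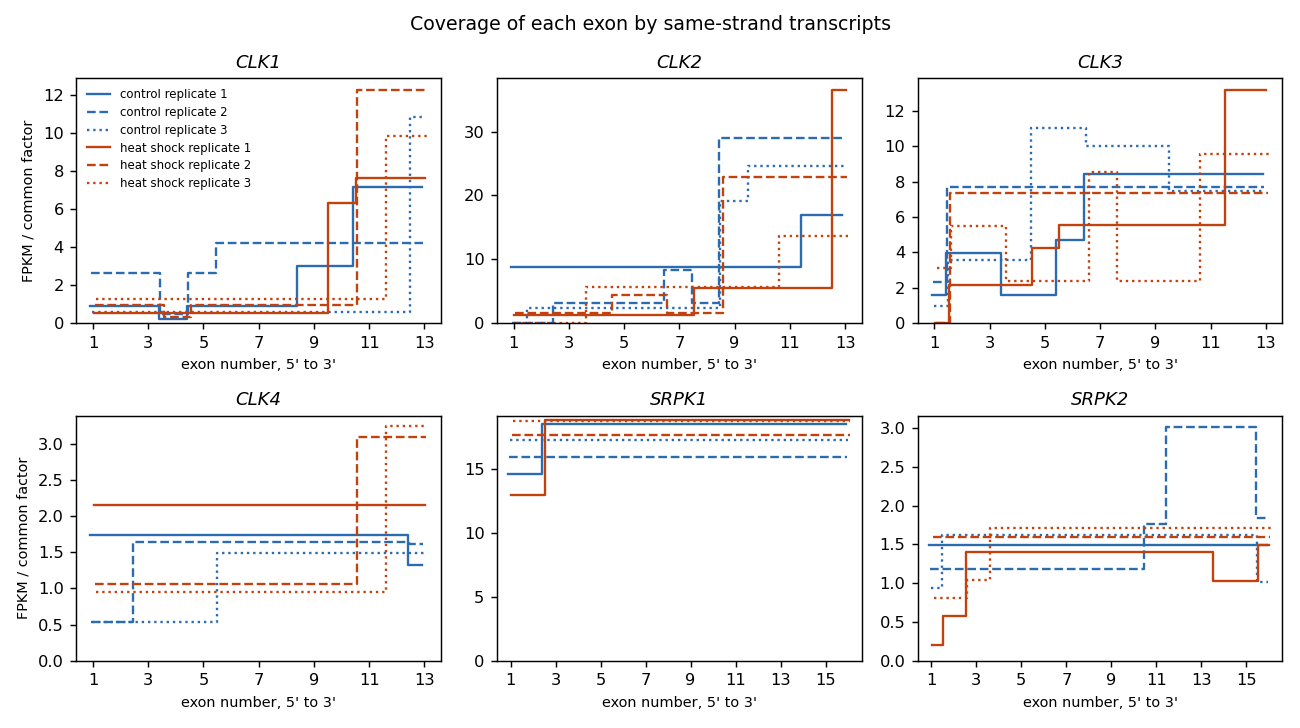
FPKM of same-strand transcripts over each exon of the reference transcript, divided by the common factor of the library (vertical axis, linear from 0, one scale for each gene), against exon number from 5′ to 3′, with controls in blue, heat shock in orange and solid, dashed and dotted lines for replicates 1, 2 and 3. CLK1 and CLK2 climb toward their last exons in all 6 libraries, exon 4 of CLK1 dips in control replicates 1 and 2 and heat shock replicate 2, and SRPK1 is level from exon 3 on.

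The protein-coding transcripts of CLK1, NM_004071 and NM_001162407, were listed at 0 in all 6 libraries. The transcripts that did run across exons 3 to 5 were of 2 kinds. NR_027855, which skips exon 4, had 0.644 FPKM in control replicate 1 (Cufflinks 95% interval 0.289 to 0.998), 0.944 in control replicate 2 (0.504 to 1.38) and 1.49 in heat shock replicate 2 (0.285 to 2.69), and it was listed at 0 in the other 3 libraries. It was thus present in both groups, in 2 control libraries and 1 heat shock library.

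NR_027856, which keeps introns 3 and 4, had 0.195 FPKM in control replicate 1 and 0.595 in control replicate 3, and 1.18, 0.721 and 0.624 in heat shock replicates 1 to 3. In control replicate 2 an assembled transcript keeping both introns had 0.212 FPKM (interval 0 to 0.525). Together the intron-keeping forms were thus above all controls in every heat shock library as deposited, from 0.195 to 0.595 in control and from 0.624 to 1.18 in heat shock. As deposited 3.71% of genes lay apart upward, and the share over transcripts was not computed. After division by the common factor the groups overlapped, with means of 0.439 ± 0.211 in control and 0.716 ± 0.506 in heat shock (exact permutation test, two-sided, n = 3, p = 0.5).

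No transcript in any library held exon 4 with both neighbouring introns removed. The share of exon 4 skipping among the transcripts running from exon 3 to exon 5 was 76.8%, 81.7% and 0% in control and 0%, 67.3% and 0% in heat shock, with the rest keeping introns 3 and 4. Control replicate 3 was like heat shock replicates 1 and 3, and heat shock replicate 2 was like control replicates 1 and 2. The mean share was 52.8 ± 45.8% in control and 22.4 ± 38.9% in heat shock (exact permutation test, two-sided, n = 3, p = 0.4), where 4.09% of exons measured at a minimum of 0.1 FPKM had groups apart in either direction. These shares rest on 0.595 to 2.21 FPKM, under the minimum of 1 FPKM set for exon shares in 3 libraries, and the difference between the groups was smaller than the spread within either.

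**Figure D4:**
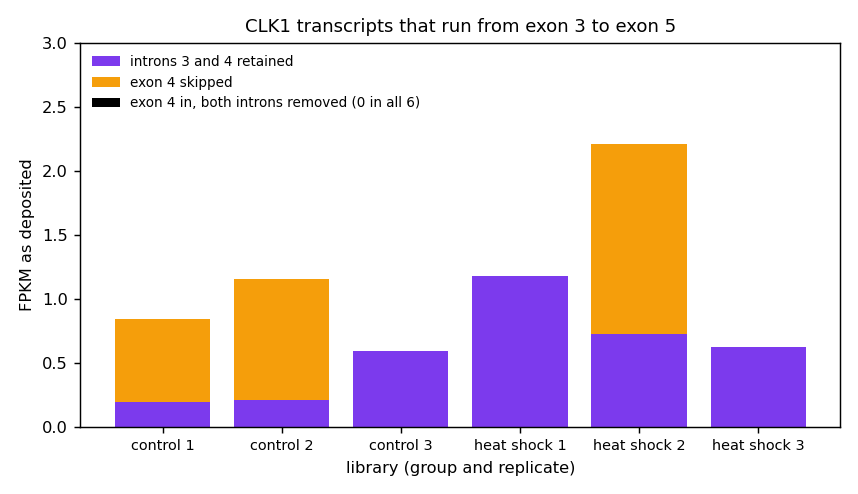
FPKM as deposited (linear axis) of the CLK1 transcripts that run from exon 3 to exon 5 in each of the 6 libraries, stacked by form, with exon 4 skipped in orange and introns 3 and 4 kept in violet. The skipped form appears in control libraries 1 and 2 and heat shock library 2, and the form with exon 4 in and both introns removed is at 0 throughout.

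Inside intron 1 of CLK1 an assembled single-exon transcript without a strand was listed in each of the 6 libraries, within chr2:201726588-201727556. It was examined after its values were seen. It had 6.56, 5.50 and 11.1 FPKM in control replicates 1 to 3 and 14.5, 16.7 and 15.98 in heat shock replicates 1 to 3, so that every heat shock library was above every control. Its length varied between 321 and 969 bases. Spread over the intron, its coverage relative to the common factor was 1.49, 2.16 and 1.78 in control and 2.44, 2.34 and 3.903 in heat shock, a ratio of means of 1.60 (exact permutation test, two-sided, n = 3, p = 0.1, the smallest possible). As deposited this coverage was 1.39, 0.939 and 1.71 in control and 5.20, 5.41 and 1.90 in heat shock. Of 1734 introns with such transcripts in all libraries, 1.04% lay apart in this direction on scaled coverage and 2.6% on coverage as deposited. No such share was computed for the FPKM of the transcript itself. Its FPKM over the common factor overlapped between the groups, from 6.999 to 12.7 in control and from 6.80 to 32.8 in heat shock.

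CLK2, the CLK kinase with the highest coverage here, had 11.2, 13.9 and 11.3 in control and 11.0, 11.0 and 6.49 in heat shock on the scaled exon coverage. Every heat shock library was below every control, but heat shock replicates 1 and 2 were below the lowest control by less than the controls differed among themselves. The log2 fold change was -0.35 (limma, adjusted p = 0.894) and -0.12 without heat shock replicate 3, and 4.96% of all genes lay apart in this direction. With median-of-ratios size factors the log2 fold change was 0.06. In heat shock replicate 3 Cufflinks had joined CLK2 with its neighbours SCAMP3 and ENTREP3 into 1 assembly of 27 exons, and in control replicate 1 with SCAMP3. Its summed FPKM of 8.31, 14.8 and 23.6 in control and 77.7, 53.1 and 0 in heat shock leaves out the joined assemblies, which were counted to no gene. The summed value of 0 is thus not an absence of CLK2, whose exon coverage was 3.16 FPKM in that library as deposited.

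Some forms over the exons of CLK2 were assembled in single libraries. In heat shock replicate 2 a transcript of 6.56 FPKM skipped exons 7 and 8, which left an inclusion share of 36.9% for each exon, while the share was 100% in the other 5 libraries. In heat shock replicate 3 intron 7 was kept in full, against 100% spliced in the other 5. Intron 12, the last one, was spliced in 77.8% of FPKM in control replicate 3 and 42.2% in heat shock replicate 3 and in 100% in the other 4. These shares leave out transcripts that end inside an intron. In heat shock replicate 1 a 3′ fragment of 65.8 FPKM ended inside intron 12, while the share rested on 11.9 FPKM. Coverage over the intron was 11.98 FPKM in that library as deposited. Both intron values of heat shock replicate 3 came from the assemblies joined with SCAMP3 and ENTREP3, which the summed FPKM leaves out. Each of these differences in share thus sat in 1 library or in 1 of each group.

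CLK3, a CLK kinase with an alternative first exon, had 4.91, 5.87 and 5.13 in control and 4.68, 4.91 and 5.23 in heat shock, with means of 5.30 ± 0.506 and 4.94 ± 0.276 (SD, n = 3). The groups overlapped, and the log2 fold change was -0.08 (limma, adjusted p = 0.895). Of its 2 annotated transcripts, NM_003992 was listed in control replicate 2 at 2.31 FPKM and in heat shock replicates 1 and 2 at 4.58 and 14.1, and at 0 elsewhere. NM_001130028, which starts at the downstream first exon, was listed in control replicates 1 and 2 at 1.495 and 1.02 and at 0 in all heat shock libraries. These listings leave out assembled transcripts. With them, coverage of the downstream first exon as deposited was 1.495, 1.02 and 0.951 FPKM in control and 0, 0 and 1.52 in heat shock. In heat shock replicate 3 an assembled transcript of 1.16 FPKM also began upstream, at position 74900051. The log2 fold change of NM_003992 was 1.56 (limma over 7783 transcripts, adjusted p = 0.827), where 0.0385% of transcripts were called and 4.33% had an unadjusted p under 0.05, with 3.85% in the higher direction. Introns 4 and 11 of CLK3 were kept in full in heat shock replicate 3 and were at 100% spliced in the other 5 libraries. Transcripts that end inside an intron are left out of these shares. Coverage as deposited over intron 4 was 1.16 FPKM in heat shock replicate 3, 4.03 in heat shock replicate 1 and 2.89 in control replicate 3. Over intron 11 it was 4.66 in heat shock replicate 3 and 6.78 in heat shock replicate 1. Intron 2 was kept in part in control replicates 1 and 3 and intron 8 in control replicate 1.

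SRPK1, which prepares SR proteins for import into the nucleus, was the steadiest member, with 18.3, 15.9 and 17.2 in control and 18.5, 17.6 and 18.6 in heat shock. The means were 17.1 ± 1.19 and 18.3 ± 0.563 (SD, n = 3), a ratio of 1.07, with overlapping groups and a log2 fold change of 0.09 (limma, adjusted p = 0.894). Its coding transcript NM_003137 made up 79.0%, 100% and 86.1% of the FPKM of the gene in control and 68.9%, 100% and 100% in heat shock. The non-coding NR_034069 was listed only in control replicate 3, at 2.31 FPKM. All 15 introns of SRPK1 were at 100% spliced in every library.

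SRPK2, its close relative, had 1.41, 1.64 and 1.25 in control and 1.34, 1.53 and 1.57 in heat shock. The means were 1.43 ± 0.195 and 1.48 ± 0.119 (SD, n = 3), with overlapping groups and a log2 fold change of 0.03 (limma, adjusted p = 0.971). Of its transcripts, NM_182692 was listed in 5 libraries, from 0.320 to 1.40 FPKM, and NM_182691 only in heat shock replicate 3, at 0.116 FPKM with an interval from 0 to 0.435. The start of NM_182691 was not confined to that library. In heat shock replicate 1, assembled transcripts of 0.973 and 0.787 FPKM began at the same position, 104909477. SRPK1 over SRPK2 was 12.98, 9.68 and 13.7 in control and 13.8, 11.5 and 11.9 in heat shock.

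Over all 6 kinases, 35 introns reached the minimum of 1 FPKM in every library, and 26 of them were at 100% spliced in all 6 libraries. None of the 35 had groups apart, where 0.554% of 33227 introns did. Transcripts that end inside an intron are not counted, so 100% spliced does not mean that no transcript covered the intron. In heat shock replicate 3, CLK3 intron 7 was at 100% with 1.16 FPKM spliced, while coverage over the intron was 1.93 FPKM. Of the exons with a skipping transcript, 2 were measured and neither had groups apart, where 3.9% of 2924 did. Of 8 annotated transcripts with a share of their gene to compare, none had groups apart, where 5.02% of 10615 did. At the lower minimum of 0.1 FPKM, which takes in CLK1, CLK4 and SRPK2, 75 introns were measured and again none had groups apart, where 0.352% of introns did. CLK1 introns 3 and 4 were the only ones of the 75 that are annotated in the reference transcript and were at 0% spliced in all 6 libraries.

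The other genes of this pathway gave no call either. Of 12 other kinases of SR and spliceosomal proteins, 11 were tested on the scaled exon coverage, with a median log2 fold change of -0.00404 beside -0.11 over all 11736 genes. They ran from DYRK3, a kinase that dissolves stress granules and speckles, at -0.35 to PRP4K, a kinase of the spliceosome, at 0.12. The 14 SR and TRA2 genes, the substrates, had a median of 0.02, from SRSF12 at -0.14 to SRSF1, the first described SR protein, at 0.14. SRSF1 had groups apart upward, while SRSF2 and SRSF10 had groups apart downward, with log2 fold changes of -0.09 and -0.08. Over all genes 1.92% lay apart upward and 4.96% downward.

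The 8 phosphatase and import genes had a median of -0.07, from PPP1CA, a catalytic subunit of protein phosphatase 1, at -0.17 to PPP1CC, another, at 0.05. The 5 chaperones that bind SRPK had a median of 0.11, from DNAJC8 at 0.02 to HSPA8, the constitutive HSP70, at 0.32 (limma, adjusted p = 0.894), and HSPA8 and HSP90AB1 had groups apart upward. The 6 heat shock genes had a median of 0.72, from BAG3 at 0.14 to DNAJB1 at 2.19 (limma, adjusted p = 0.681), and 3 of them had groups apart upward. The 6 kinases had a median of 0.06, with 1 apart upward and 1 apart downward. Over all 11736 genes, 1.92% lay apart upward and 4.96% downward on this measure. As summed FPKM as deposited, the medians were 0.54 for the other kinases, 0.88 for SR and TRA2 genes, 0.71 for phosphatases and import, 0.89 for chaperones and 1.53 for heat shock genes.

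**Figure D5:**
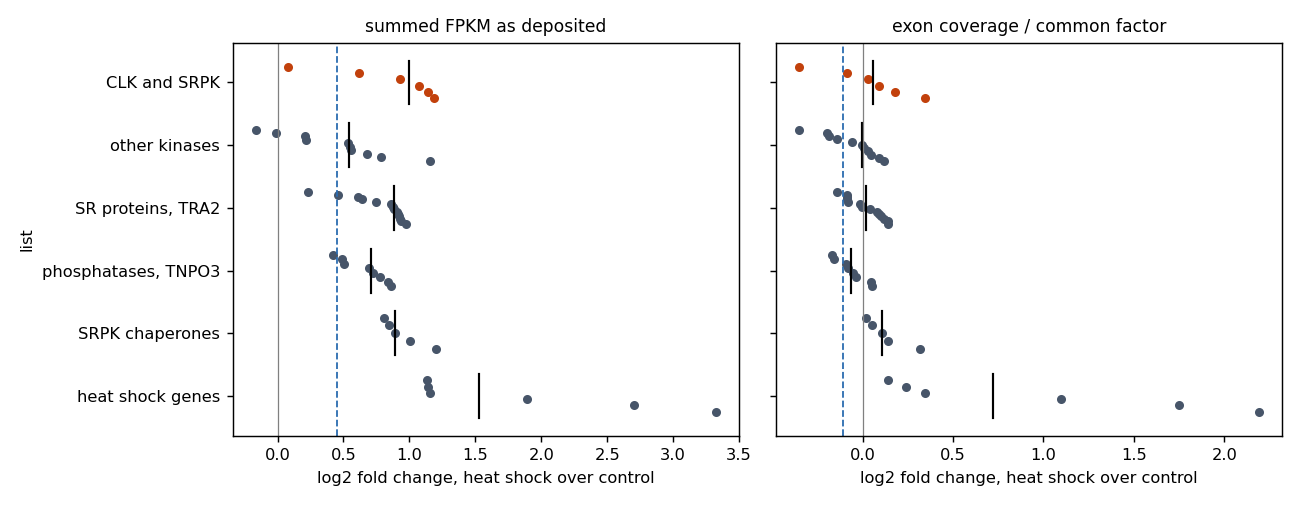
Log2 fold change of heat shock over control (horizontal axis, log2 units) for each gene of 6 lists, with the 6 kinases in orange, black bars at the median of a list and a dashed blue line at the median of all genes tested, on summed FPKM as deposited (left) and on exon coverage over the common factor (right). On the left nearly every gene lies above 0, with the dashed line at 0.45, and on the right the kinases lie between -0.35 and 0.35, with no gene above 0.35 outside the heat shock list.

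By Pearson correlation of log2(FPKM over the common factor + 1) over the 6 libraries, the genes most like each kinase were USP21 and HIKESHI for CLK1 (r = 0.984 each), SLIT2 (0.998) and URI1 (0.986) for CLK2, and CIBAR1 and ELF1 for CLK3 (0.988 each). They were NR_047548 (0.980) and RPL19 (0.979) for CLK4, PSMD7 (0.991) and PDCD10 (0.987) for SRPK1, and ZGRF1 (0.992) and HSDL1 (0.989) for SRPK2. The points of each correlation share the scale of their library, so these values are a description. The genes named for CLK2 depend on its summed 0 in heat shock replicate 3, where its joined assemblies were left out.

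In the authors' merged table a locus has 1 pooled FPKM for each group, with no spread. The authors' pooled values for control and heat shock were 3.16 and 16.2 for CLK1, 6.80 and 33.5 for CLK3, 1.32 and 9.41 for CLK4, 17.9 and 79.2 for SRPK1 and 1.64 and 6.47 for SRPK2. For CLK3, CLK4, SRPK1 and SRPK2 the pooled heat shock value was above the summed FPKM of every single library. The pooled values are thus not averages of the libraries and are not comparable in level with them.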

How the data were processed

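Read quality was examined in FastQC 0.10.1 and ends were removed by Trimmomatic 0.3.0. The authors used TopHat2, with up to 3 mismatches per read, on the hg19 genome. Transcripts of single libraries came from Cufflinks 2.0.2 guided by hg19 genes, and the deposited FPKM of a transcript and its interval are from that step. The authors then pooled the groups with cuffmerge and Cuffdiff (version not given in the sources used here). The fold changes, p-values and q-values of that table were not used. Read counts are not given in these values, so no count test was run.

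Genes are sums over annotated transcripts and the assembled ones grouped with them. Genes averaging at least 1 FPKM were fitted on log2(FPKM + 1) with limma 3.58.1 in R 4.3.3 (eBayes with a trend, Benjamini-Hochberg), 3 heat shock against 3 control libraries, and called at an adjusted p under 0.05 and over 2-fold. The common factor is a median of ratios over 983 genes above 10 FPKM in all libraries. An intron or exon share is the FPKM of transcripts splicing the intron or holding the exon, as a percent of these plus those keeping or skipping it, with at least 1 FPKM in every library. An intron counts as kept only in a transcript of its strand with 1 exon reaching past both of its ends. Transcripts that end inside the intron were left out. Shares and ratios were compared with exact two-sided permutation tests, whose smallest p is 0.1. Groups lie apart when all 3 heat shock values are above, or all below, the 3 control values. Exon coverage, ratios between kinases, the lower minimum of 0.1 FPKM across CLK1 exon 4 and the reading of CLK1 intron 1 were added after the values were seen, and fits were tested on simulated data.

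The members and lists were chosen with earlier results of these data known. Named genes are the 6 kinases, the lowest and highest of each list, any called, the label checks, and the 2 most correlated genes of each kinase. SRSF2, SRSF10 and HSP90AB1 were named after their values were seen. PRPF4B was matched as PRP4K. Library pairs with the same replicate number did not deviate together (r = 0.03, -0.33 and -0.38), so the numbers were not taken as pairs. Near-identical or overlapping genes can share reads. FPKM of CLK2 is uncertain where it was joined to neighbours, and the authors' pooled value of its locus is not reported here. Alternatives were another pseudocount, minimum, scaling or variance model, annotated transcripts alone, a term for libraries rich in transcripts without a strand, a replicate block, and each library left out. Positions were checked against GRCh37 chromosome lengths, which none exceeded, and start codons are from GENCODE release 44.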

Additional observations from a re-analysis of the deposited data

Results flagged for a closer look

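The transcript without a strand in intron 1 of CLK1 lies outside the measurements of the kinases, which use transcripts of their own strand. Its FPKM as deposited was above the level of the controls in all 3 heat shock libraries, with means of 7.71 ± 2.97 in control and 15.7 ± 1.13 in heat shock (SD, n = 3), a ratio of 2.04 (exact permutation test, two-sided, p = 0.1, the smallest that 3 against 3 allows). The share of all such transcripts that lay apart in FPKM was not computed. After division by the common factor the groups overlapped, with means of 10.4 ± 3.01 in control and 15.6 ± 14.9 in heat shock (exact permutation test, two-sided, p = 0.9). Its strand, and whether it belongs to unspliced CLK1 RNA, was not tested.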

How the results depend on the processing

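No kinase was called under the alternatives tried that keep the adjusted threshold. With an unadjusted p, CLK4 as deposited passed at a log2 fold change of 1.14. Of the values for single kinases, 265 kept their direction and call and 20 turned. The CLK1 isoforms rest on FPKM near or under 1 with wide Cufflinks intervals, their depth in reads is unknown, and 3 libraries a group cannot give an exact p under 0.1. Of the libraries left out in turn, heat shock replicate 3 gave the most calls over genes as deposited, by exon coverage and over transcripts.

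Of the 3 genes called as deposited, the count became 0 with no minimum FPKM, 1 without the variance trend, with median-of-ratios factors, as TPM or with annotated transcripts alone, 7 by exon coverage, 477 with an unadjusted p, and from 0 (without control replicate 2) to 16 (without heat shock replicate 3) with a library left out. With the replicate block it was 17, and 1 transcript share of its gene had all 3 paired differences of 1 sign; the numbers do not pair the samples. With the common factor the 0 calls became 267 with an unadjusted p, and stayed at 0 with any library left out. By scaled exon coverage the 0 calls became 2 with a pseudocount of 0.1, a minimum of 10 FPKM or median-of-ratios factors, 7 as deposited, 72 with an unadjusted p, and 0 to 5 with a library left out (5 without heat shock replicate 3). Of the 3 transcripts called, the count became 0 with no minimum or with a term for transcripts without a strand, 1 at a minimum of 10 FPKM, 337 with an unadjusted p, and 2 to 19 with a library left out (19 without heat shock replicate 3). Among the kinases' introns, exons and transcript shares, 0 to 1, 0 and 0 to 2 lay apart with a library left out.

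CLK2 turned most often. Its log2 fold change of 0.08 as deposited became -0.95 with a pseudocount of 0.1, -1.09 with the strand term, -0.52 with median-of-ratios factors and -0.81 as TPM, and ran from -1.06 (without heat shock replicate 1) to 2.09 (without heat shock replicate 3). With the common factor it ran from -2.08 to 0.53 over the libraries left out. Its scaled exon coverage gave 0.0646 with median-of-ratios factors and 0.50 as deposited. CLK1 with the common factor gave -0.16 with annotated transcripts alone. CLK3 with the common factor gave -0.00318 with annotated transcripts alone, -0.0845 by exon coverage and -0.0638 to 0.67 over the libraries left out, and its scaled exon coverage gave 0.28 with median-of-ratios factors and 0.68 as deposited. SRPK2 with the common factor gave 0.0295 by exon coverage and -0.18 to 0.16 over the libraries left out, and its scaled exon coverage ran from -0.0247 to 0.0899. The cause of these turns was not tested.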
